A study of Rattus norvegicus with 6 samples.

Results

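Fli1, Ets1 and 8 other genes of the ETS family that are expressed in blood cells were followed in the blood of rats with and without an experimental stroke. The 10 genes were Ets1, Spib, Elf1 and Elf4, grouped here as lymphoid, Fli1, Etv6 and Gabpa, grouped as megakaryocytic, and Spi1, Ets2 and Elk3, grouped as myeloid. The groups are a working division by textbook role, and most of the genes are expressed in several lineages. The division is loosest for Gabpa, a general activator, and for Elk3, which is also known from endothelial cells. The family was chosen by a result of the same comparison, since one probe set of Fli1 and the only one of Ets1 had been found lower after stroke. The stroke and sham values of the members are therefore given as a description, and no test of them is used. A member was measured where the array annotation gives its symbol alone to a probe set. This held for 7 of the 10 genes, with 15 probe sets, out of 14217 genes and 31042 probe sets in all. Fli1 and Elk3 had 4 probe sets each, Elf1 and Etv6 had 2 each, and Ets1, Ets2 and Gabpa had 1 each. Where a gene had several, a probe set is named by its mean log2 value over the 6 rats, as in Fli1 at 6.24, the Fli1 probe set that led to the choice. The plot of the members in each rat gives the manufacturer's identifier beside each mean. For Spi1, Spib and Elf4 no probe set carried the symbol alone, and these 3 genes were not analysed here.

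ETS proteins bind DNA through a winged helix-turn-helix domain, the ETS domain, that reads the core bases GGAA. Members share this core, and their effects differ by the cells that make them and by the partner proteins they bind. Ets1 acts in T, B and natural killer cells, Fli1 drives genes of megakaryocytes and platelets, and Spi1 (PU.1) directs the myeloid lineage. Blood holds mature cells, platelets and reticulocytes, so its RNA carries the ETS messages left in those cells.

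The samples came from male Sprague-Dawley rats aged 8 weeks. In the MCAO group (middle cerebral artery occlusion), a coated thread blocked the origin of the left middle cerebral artery and was then withdrawn. Sham rats had the same operation with an uncoated thread. Blood was drawn from the heart 24 h after reperfusion, and 3 rats per group were measured, each on 1 Affymetrix rat genome array. The MCAO rats had been selected for a similar infarct size, so that they stand for strokes of that size and not for all operated rats. The labels name each rat as a separate sample. Whole blood was not separated into cell types, and fewer cells of a type and less RNA per cell cannot be told apart.

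Promoter sequence was available in the RefSeq table (build GRCr8) for 6 of the 10 genes, and Fli1, Ets1, Etv6 and Spi1 were not among them. The 250 bases before the start of Elf1 (chr15:61353776-61354025, plus strand) and Ets2 (chr11:48490807-48491056, plus strand) are shown as those of a lymphoid and a myeloid member whose values are described further on. Capitals mark the ETS core GGAA and its reverse complement TTCC, so that both strands were searched.
Elf1: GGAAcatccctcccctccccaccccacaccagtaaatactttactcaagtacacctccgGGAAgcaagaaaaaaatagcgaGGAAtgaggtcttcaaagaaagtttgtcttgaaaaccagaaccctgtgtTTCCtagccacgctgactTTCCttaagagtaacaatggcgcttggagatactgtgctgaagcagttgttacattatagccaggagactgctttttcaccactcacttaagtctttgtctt
Ets2: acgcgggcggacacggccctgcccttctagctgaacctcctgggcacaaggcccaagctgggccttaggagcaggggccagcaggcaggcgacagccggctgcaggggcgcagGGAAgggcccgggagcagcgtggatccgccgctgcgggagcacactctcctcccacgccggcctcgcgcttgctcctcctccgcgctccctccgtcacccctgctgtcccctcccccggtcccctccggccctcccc
The Elf1 window held 5 core matches, 3 written as GGAA and 2 as TTCC, and 19.0% of 33469 promoters of the same length held as many. The Ets2 window held 1 match, where 93.2% of the promoters held 1 or more, and the median promoter held 3. The longer form CCGGAA, or TTCCGG on the other strand, was in neither window and in 12.6% of all promoters. A match of 4 bases is a description of the sequence and says nothing about binding.

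The scale of the values decides how far members can be compared. The deposited values were summarised with the DFW method (Distribution Free Weighted), which shrinks most differences between arrays to near 0 and leaves a few large. The median probe set ranged over 6.55e-06 on the log2 scale across the 6 rats, and the median member over 2.9e-05. Only 3 member probe sets ranged over more than 0.001, as did 3.48% of all probe sets. They were Ets1, with a range of 0.0211, Fli1 at 6.24, with a range of 0.00572, and Elf1 at 5.94, with a range of 0.00373. These ranges lie in the top 0.258%, 0.860% and 1.24% of the array. The other 12 member probe sets ranged from 3.01e-06 (Gabpa) to 0.000515 (Ets2). The differences below are therefore sizes on the deposited scale and not fold changes of the RNA.

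**Figure D1:**
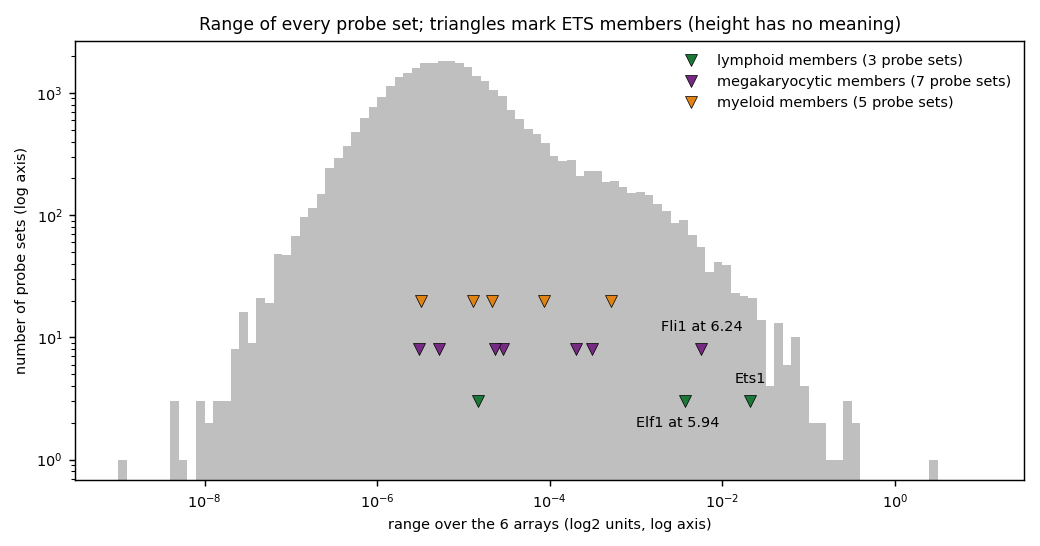
Histogram of the range of each probe set over the 6 arrays (log2 units, log axis) against the number of probe sets (log axis), with 1 triangle for each of the 15 member probe sets, coloured by lineage (the triangles' height has no meaning); a range of 0 is drawn in the lowest bin. Ets1, Fli1 at 6.24 and Elf1 at 5.94 lie in the wide tail, and the other 12 lie at ranges of 0.000515 or less.

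Calls were made with Rank Products at a false discovery rate (FDR) under 0.05. It ranks all probe sets in each of the 9 differences between an MCAO and a sham rat. The logs of the ranks are then averaged, and the most extreme averages are called. A probe set that passed in both directions was counted as lower. Ets1 and Fli1 at 6.24 were called lower in MCAO, which is how the family was chosen. No member was called higher by Rank Products or limma, and 13 member probe sets were not called. In limma 0 members passed in either direction, and 1 had an unadjusted p under 0.05, as had 1150 of all probe sets. Over all probe sets, 0.58% were called lower and 0.126% higher. A wide range goes with a call, since the 1000 widest probe sets held 211 of the 219 that were called. The mean was lower in MCAO for 10 of the 15 member probe sets and for 46.6% of all probe sets. This count of 10 became 8 after quantile normalization and 5 with each array centred on its own median. Centring raised the median difference of all probe sets from 0.0672 to 29.8 millionths of a log2 unit. It left 7.53% of all probe sets with a lower mean.

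The MCAO rats lay below all sham rats at 2 of the 15 member probe sets, Fli1 at 6.24 and Elk3 at 5.86, and at 3.6% of all probe sets. No member lay above in the same sense, as 4.82% of all probe sets did. Both separations were narrow. The lowest sham rat exceeded the highest MCAO rat by 9.13e-05 at Fli1 and by 2.52e-06 at Elk3.

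Ets1 is the lymphoid member with the largest difference. It is needed for the development and survival of T and natural killer cells. Its log2 values were 7.4962, 7.5112 and 7.5091 in the MCAO group, given here and below in the order of rats 1 to 3, and 7.5092, 7.5159 and 7.5173 in the sham group. The groups overlapped, because MCAO rat 2 lay above sham rat 1, and MCAO rat 1 stood well below the other 5 rats. The mean was 7.5055 ± 0.0081 (SD, n = 3) in MCAO and 7.5141 ± 0.00436 in sham, a difference of -0.00865 with a standard error (SE) of 0.005. Without MCAO rat 1 the difference was -0.00402.

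Elf1, a factor of T and B cells that also acts in other blood cells, had a probe set that followed Ets1. At 5.94 the values were 5.9362, 5.9387 and 5.9389 in MCAO and 5.9386, 5.9392 and 5.9399 in sham. MCAO rat 1 was again lowest, and the other MCAO rats lay within 0.001 of sham rats 1 and 2. The difference was -0.00131 (SE 0.000895) and it shrank to -0.00043 without MCAO rat 1. The second Elf1 probe set, at 5.62, stayed near 5.6183 in every rat and differed by 5.15e-06 (SE 4.56e-06) in the other direction. The 2 probe sets of the gene therefore disagreed in direction and differed greatly in range. Of the 3 lymphoid probe sets, 2 had a lower mean in MCAO and 1 a higher one.

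Fli1 is the megakaryocytic member for which the result depended most on the probe set. The gene is needed to make platelets and is lost in a human bleeding disorder with few platelets. At 6.24 the values were 6.2336, 6.2369 and 6.2368 in MCAO and 6.2370, 6.2394 and 6.2391 in sham. All 3 MCAO rats were below all 3 sham rats, with MCAO rat 1 far below and the others just under sham rat 1. The mean was 6.2358 ± 0.00185 (SD, n = 3) against 6.2385 ± 0.00131, a difference of -0.00271 (SE 0.00123). Without MCAO rat 1 the difference was -0.00165.

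The other 3 Fli1 probe sets gave much smaller differences. At 5.80 the values were 5.80207, 5.80236 and 5.80232 in MCAO and 5.80230, 5.80238 and 5.80235 in sham, a difference of -9.15e-05 (SE 8.98e-05). At 5.64 they were 5.63580, 5.63598 and 5.63598 in MCAO and 5.63600, 5.63600 and 5.63592 in sham, a difference of -5.33e-05 (SE 6.06e-05). Without MCAO rat 1 these differences were 3.73e-07 and 4.46e-06. At 6.55, the Fli1 probe set with the highest mean, the values kept within 2.34e-05 and the MCAO mean was higher by 2.61e-06 (SE 7.61e-06). Over the 6 rats, the probe set at 6.24 followed that at 5.80 with a correlation of 0.889 and that at 5.64 with 0.672, and it ran against that at 6.55 with -0.723. These 3 correlations share the same arrays and are a description. The files do not say which transcripts each probe set reads.

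The remaining megakaryocytic members barely moved. Etv6, a repressor needed for blood stem cells and platelets, differed by -9e-08 (SE 8.15e-06) at 5.39 and by 1.09e-06 (SE 1.63e-06) at 5.10. Gabpa, the DNA-binding subunit of GABP and a general activator of mitochondrial and housekeeping genes, had values of 5.53852 in every rat and differed by -4.82e-07 (SE 1.2e-06). In these 3 probe sets the groups overlapped and the difference was smaller than its SE. Of the 7 megakaryocytic probe sets, 5 had a lower mean in MCAO and 2 a higher one. After centring 3 had a lower and 4 a higher one, and 7.53% of all probe sets a lower one.

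Among the myeloid members, Ets2 had the widest range. It is a target of growth factor signalling that acts in macrophages. Its values were 5.68786, 5.68805 and 5.68838 in MCAO and 5.68807, 5.68805 and 5.68790 in sham, a difference of 8.8e-05 (SE 0.00015). MCAO rats held both the lowest and the highest value, so the sham rats lay inside the spread of the MCAO rats. Elk3 is a ternary complex factor that acts with serum response factor and is also known from endothelial cells and macrophages. At 5.86 its values were 5.862591, 5.862596 and 5.862605 in MCAO and 5.862610, 5.862612 and 5.862608 in sham, a difference of -1.25e-05 (SE 4.1e-06). The groups did not overlap, but they overlapped after quantile normalization. Centring arrays on their medians, which shifted the differences of all probe sets upward alike, made this one 1.73e-05. The other 3 Elk3 probe sets differed by -1.71e-05 (SE 2.53e-05), -2.48e-07 (SE 4.18e-06) and 1.04e-07 (SE 1.17e-06), with overlapping groups. Of the 5 myeloid probe sets, 3 had a lower mean in MCAO and 2 a higher one. After centring all 5 had a higher one, and 7.53% of all probe sets a lower one.

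**Figure D2:**
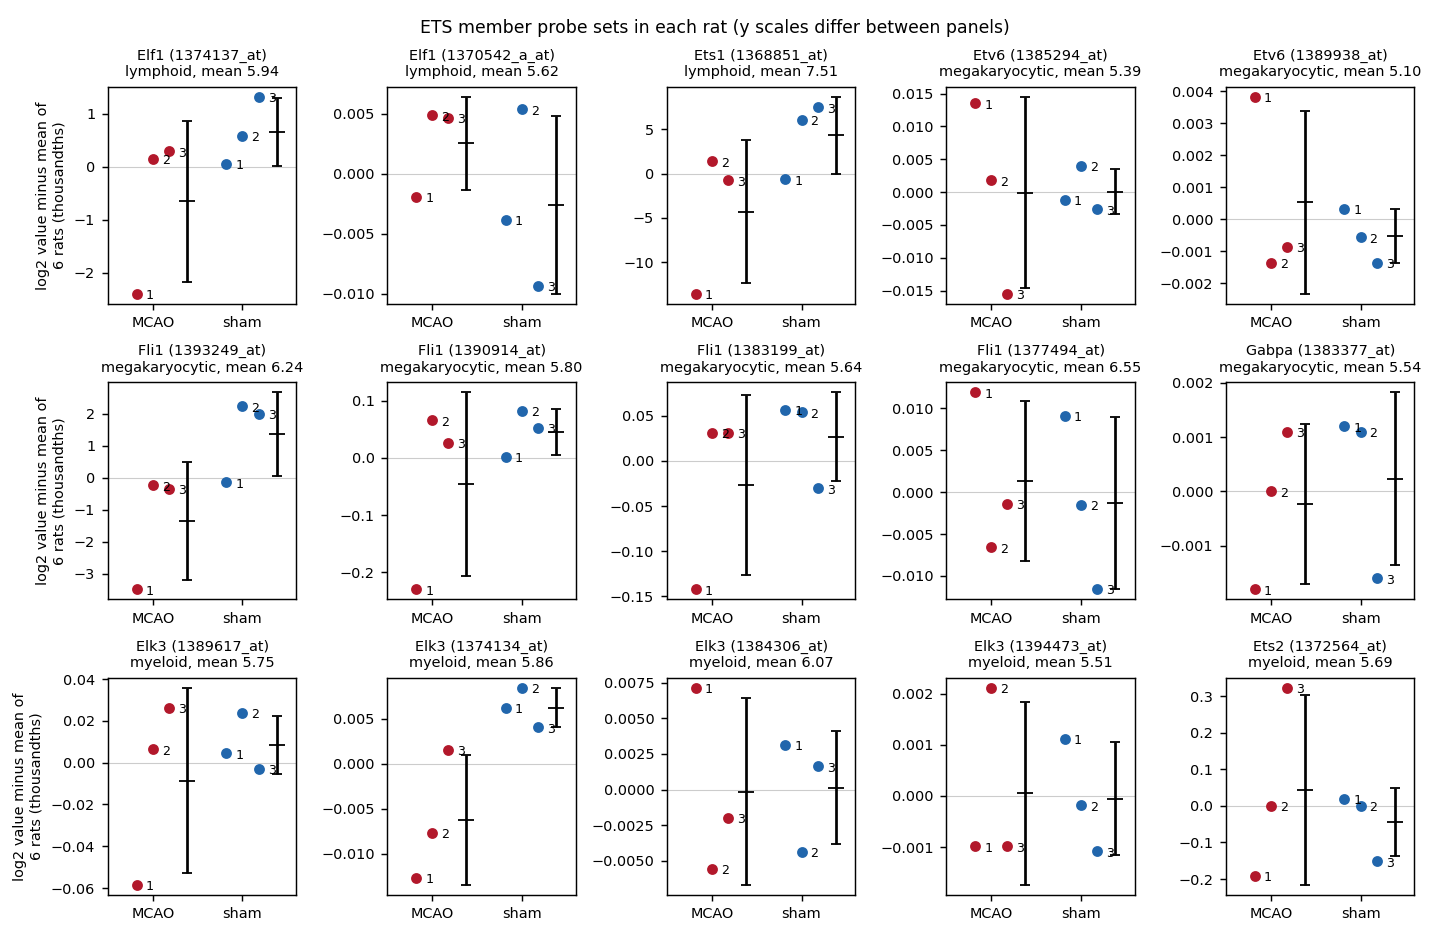
Log2 value of each of the 15 member probe sets in each rat, minus its mean over the 6 rats, in thousandths of a log2 unit (y scales differ between panels). Numbers name the rats, and black bars give the mean and SD of 3 rats. MCAO rat 1 is the lowest point in 9 of the 15 panels.

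Set side by side, the median difference was -1305.61 millionths of a log2 unit over the 3 lymphoid probe sets, -0.482 over the 7 megakaryocytic and -0.248 over the 5 myeloid ones, and 0.0672 over all probe sets. The lymphoid median is the value of Elf1 at 5.94 and rests on 2 genes. With so few probe sets and such unequal ranges, no order between the lineages was drawn from these medians.

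MCAO rat 1 had the lowest value at 9 of the 15 member probe sets. This rat was lowest at 19.5% of all probe sets, at 58.6% of the 1000 with the widest range and at 43.3% of those called lower. Sham rat 2 was lowest at a like share of all probe sets, 19.7%. MCAO rat 1 was also the highest at 30.0% of all probe sets, more than any other rat, and at 4 of the 15 member probe sets. The median of its array was 5.56433, against 5.56438 to 5.5644 in the other 5 rats. The gap of its median to the mean of all 6, 48.7 millionths, exceeds the size of the MCAO minus sham difference at 9 of the 15 member probe sets. That gap was not an offset shared by every probe set, since the median probe set ranged over only 6.55e-06 across the 6 rats. The calls depended on the sham rats. Fli1 at 6.24 was not called without sham rat 1, 2 or 3, at differences of -0.00347, -0.00228 and -0.0024, and Ets1 was not called without sham rat 2 or 3, at differences of -0.00776 and -0.00706. Over the whole array, 42, 21 and 13 probe sets were called lower without sham rats 1, 2 and 3, against 180 with all rats and 255, 166 and 346 without MCAO rats 1, 2 and 3. The cause of this was not tested.

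The co-variation of the members was read within groups, with the group difference removed. It is not independent of the stroke comparison, which led to Fli1 at 6.24 and Ets1 and whose calls go with a wide range. The p values of pairs with these probe sets are therefore a description. For each rat the group mean was subtracted, and the deviations of 1 probe set per gene were correlated over the 6 rats. Fli1 entered at 6.24, the probe set by which the family was chosen, and every other gene at its highest mean. The exact two-sided permutation test over the 36 pairings within groups cannot give a p below 0.0278. Ets1 and Fli1 at 6.24 varied together, with Pearson's r = 0.98 (exact permutation p = 0.0833, adjusted 0.35) and Spearman's rho = 0.943 (exact permutation p = 0.111, adjusted 0.583). With MCAO rat 1 and sham rat 1 left out, the rats farthest from the median of Ets1, r was 0.602. Ets1 and Elf1 gave r = 0.964 (exact permutation p = 0.0556, adjusted 0.35) and rho = 0.943 (exact permutation p = 0.111, adjusted 0.583), and r was 0.731 without the same rats. Elf1 and Fli1 gave r = 0.921 (exact permutation p = 0.111, adjusted 0.389) and rho = 0.886 (exact permutation p = 0.167, adjusted 0.583), and r was 0.294 without them. All 3 correlations were thus weaker without the lowest rat of each group, and with 4 rats left they have no test. The choice of probe set matters, since over the 6 rats, with group differences left in, Fli1 at 6.55, its highest mean, ran against Ets1 with r = -0.804, where Fli1 at 6.24 gave 0.982.

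Over all 21 pairs of the 7 measured genes, r was positive in 11 and ran from -0.892 to 0.98 with a median of 0.303. The exact permutation p reached 0.0278 in 2 pairs. Fli1 and Elk3 at 6.07 ran against each other with r = -0.892 and rho = -0.943, and r was -0.805 without MCAO rat 1 and sham rat 1. With group differences left in, Elk3 at 6.07 gave r = -0.598 with Fli1, while Elk3 at 5.86 gave 0.829 and Elk3 at 5.75 gave 0.755, so the probe sets of Elk3 disagreed. Gabpa and Ets2 ran together with r = 0.862 and rho = 0.943, and r was 0.911 without MCAO rat 1 and sham rat 3. After Benjamini-Hochberg adjustment over the 21 pairs both were at 0.292, so no pair passed. At Gabpa and at this Elk3 probe set the deviations were of the order of millionths of a log2 unit.

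**Figure D3:**
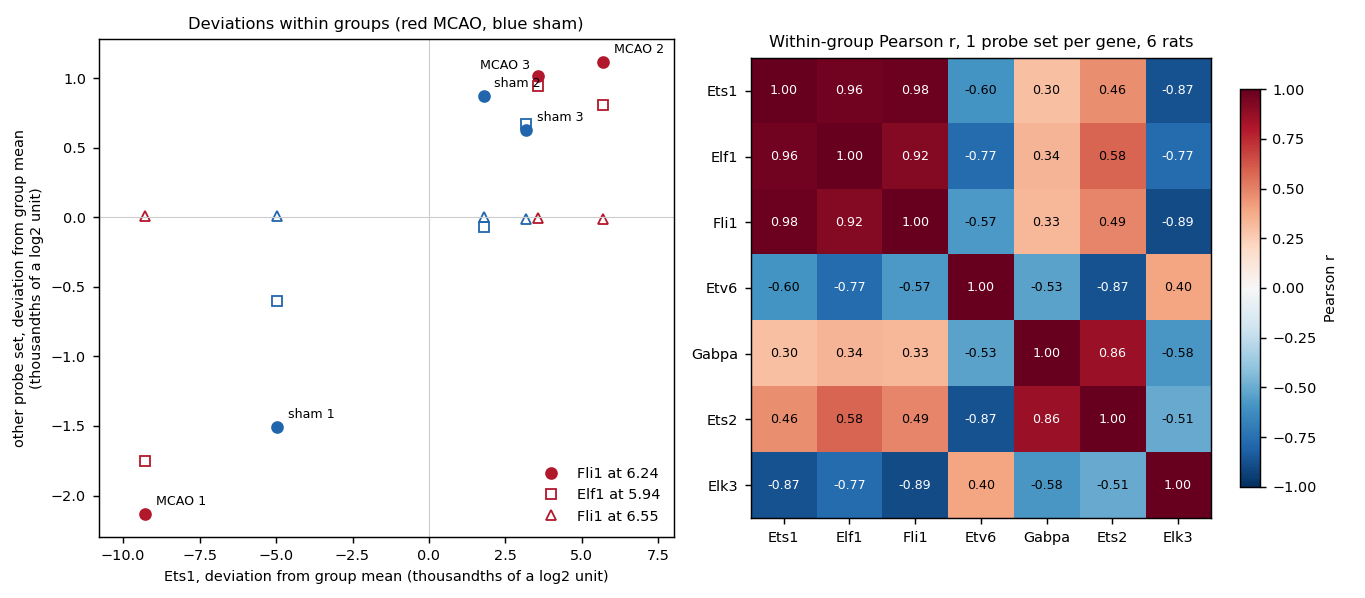
Left, deviations of Fli1 at 6.24 (filled circles), Fli1 at 6.55 (triangles) and Elf1 at 5.94 (squares) from their group means against those of Ets1, in thousandths of a log2 unit, for 3 MCAO rats (red) and 3 sham rats (blue). Right, Pearson's r of the deviations for each pair of the 7 measured genes. MCAO rat 1 and sham rat 1 lie at the low end for Ets1, Fli1 at 6.24 and Elf1 at 5.94.

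Many other genes followed Fli1 and Ets1 as closely. Over the 6 rats, with group differences left in, the genes most like Fli1 at 6.24 among 20825 probe sets were Ccdc115 (r = 0.999), Oip5-as1 (0.997), Snrpf (0.995), Evl (0.995) and Lpxn (0.994). Ets1 came 42nd with r = 0.982, and r was over 0.9 for 661 probe sets (3.17%). Those most like Ets1 were Dtd1 (r = 0.996), Ptprcap (0.996), Evl (0.996), Wdr33 (0.995) and Ly6e (0.995). Fli1 came 41st and Elf1 at 5.94 came 83rd with r = 0.974, and r was over 0.9 for 671 probe sets (3.22%). Evl, an actin regulator, stood in both lists of 5. None of these genes was called. The correlations are a description over 6 rats that share their arrays, their group difference and MCAO rat 1, which was low at Fli1 at 6.24 and at Ets1.

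Fli1 and Ets1 are neighbours on the chromosome. In GRCr8, Fli1 lies at chr8:39089526-39209511 and Ets1 at chr8:39303936-39426022, with 94.4 kb and no protein-coding gene between them. The next measured genes on either side, Kcnj5, Kcnj1, Kirrel3, St3gal4 and Dcps, had 7 probe sets with differences from -1.67e-06 to 8.75e-06, and none correlated with Fli1 in the same direction (r from -0.901 to -0.12). Their ranges over the 6 rats were at most 1.94e-05, so on this scale they could show little.

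The wider ETS family was examined next, with each gene at its probe set of highest mean. On this footing 0.886% of all 14217 genes were called lower and 0.134% higher, and the median difference was -0.003 millionths. The mean was lower in MCAO in 50.2% of all genes, and in 11.1% after centring, which shifted the difference of every gene upward alike. Of 17 further ETS genes 16 were measured, none was called lower or higher by Rank Products or by limma, and 0 had an unadjusted limma p under 0.05. The mean was lower in MCAO in 8 and higher in 8, against 1 and 15 after centring, and the median was 0.558 millionths. The largest differences were those of Etv3, a repressor, at -0.000107 (SE 8.46e-05), and Elf2, a relative of Elf1, at -1.63e-05 (SE 1.14e-05). The groups overlapped at both, and MCAO rat 1 was lowest at both.

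Partner factors, which bind DNA beside ETS proteins or bind the proteins themselves, gave a similar picture. Of 23 such genes 18 were measured, none was called by Rank Products or limma, and 0 had an unadjusted limma p under 0.05. The mean was lower in 8 and higher in 10, with a median of 0.705 millionths. After centring it was lower in 5 and higher in 13, and lower in 11.1% of all genes. The largest differences were those of Cebpb, a leucine zipper factor of myeloid cells, at -0.00114 (SE 0.00198), and Cbfb, the common subunit of the Runx factors, at -0.000517 (SE 0.000416). Without MCAO rat 3, Cebpb was called lower, and after quantile normalization Gata1, the erythroid and megakaryocytic zinc finger factor, was.

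Genes known to be bound by ETS factors were grouped by the lineage of the factor. Over all genes 0.886% were called lower, 0.134% were called higher and 50.2% had a lower mean. Of 12 lymphoid targets 11 were measured, 9 had a lower mean in MCAO, 3 were called lower and none higher, and the median was -23.2 millionths. After centring 5 of the 11 had a lower mean, as had 11.1% of all genes. The median was then 6.54 millionths, against 29.8 over all genes. After quantile normalization Prf1 was called lower, and Klf2 and Tcf7 were not. The 3 called genes were Klf2, a regulator of T cell trafficking, at -0.00756 (SE 0.00796), Tcf7, a T cell transcription factor, at -0.00603 (SE 0.004), and Prf1, the pore-forming protein of killer cells, at -0.00489 (SE 0.0041). At Tcf7 the values were 6.908, 6.919 and 6.917 in MCAO and 6.916, 6.923 and 6.924 in sham, and at all 3 genes MCAO rat 1 was lowest and the groups overlapped. None of the 3 was called without MCAO rat 1, sham rat 2 or sham rat 3, Klf2 was not called without sham rat 1, and Prf1 was not called without MCAO rat 2 or sham rat 1.

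Most megakaryocytic targets had a higher mean in MCAO. Of 13 such genes 9 were measured, 8 had a higher mean in MCAO and 1 a lower one, and the median was 114 millionths, but none was called by Rank Products or limma, and 1 had an unadjusted limma p under 0.05. Over all genes 49.8% had a higher mean. After centring 8 of the 9 targets were higher and 1 lower, so that 11.1% had a lower mean, as over all genes. After quantile normalization 7 were higher and 1 lower. Treml1, a platelet receptor, differed by 0.00045 (SE 0.000477) and Ppbp, a platelet chemokine, by 0.000205 (SE 0.000176). Without sham rat 3, Treml1 was called higher.

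Of 18 myeloid targets 14 were measured, 5 had a lower and 9 a higher mean, and the median was 2.42 millionths. After centring 3 had a lower and 11 a higher mean, and 11.1% of all genes had a lower one. With all rats 0.886% of all genes were called lower and 0.134% higher. Cybb, a subunit of the phagocyte oxidase, was called lower with a difference of -0.00898 (SE 0.0128), and Csf3r, the receptor for granulocyte colony-stimulating factor, was called higher with 0.0131 (SE 0.0187). Il1b, an inflammatory cytokine, differed by 0.0103 (SE 0.0205) and was not called. At Csf3r the values were 6.360, 6.377 and 6.426 in MCAO and 6.376, 6.373 and 6.374 in sham, so that 1 MCAO rat stood high and 1 low. Cybb was not called without MCAO rat 1, without MCAO rat 2 or without any 1 of the sham rats, and Csf3r was not called without MCAO rat 2, MCAO rat 3 or sham rat 2. Over the 3 target lists together, 4 genes were called lower with all rats, 0, 3 and 8 without MCAO rats 1, 2 and 3, and 1, 0 and 0 without sham rats 1, 2 and 3. In the same order 1 gene was called higher with all rats, 2, 0 and 0 without an MCAO rat, and 1, 2 and 2 without a sham rat.

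**Figure D4:**
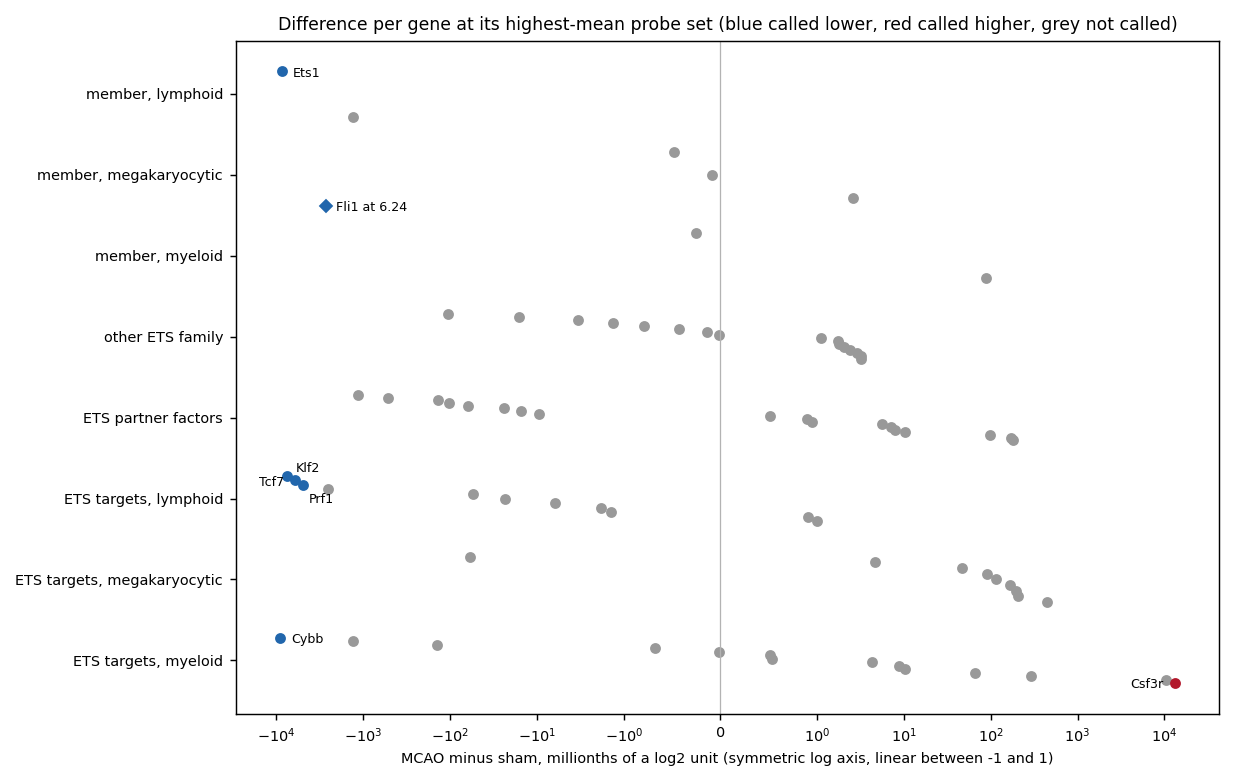
MCAO minus sham difference of each gene at its highest-mean probe set, in millionths of a log2 unit (symmetric log axis, linear between -1 and 1), for the members, the other ETS genes, the partner factors and the ETS targets of each lineage. Blue points were called lower and red ones higher, grey ones were not called, and the diamond is Fli1 at 6.24, which is not its highest-mean probe set.

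Markers of the cells of whole blood were read beside these results. All 13 T cell markers were measured, 10 had a lower mean in MCAO, and Cd3g was called lower at -0.00312 (SE 0.00207), with Cd3d at -0.0013 (SE 0.000765) not called. The mean level of the list was 6.17602 to 6.17685 in MCAO and 6.17663 to 6.17721 in sham. Of 11 B cell markers 7 were measured, and all 7 had a lower mean. Ms4a1 at -0.00509 (SE 0.00229), Fcmr at -0.00485 (SE 0.00218) and Cr2 at -0.000833 (SE 0.00033) were called lower, and at 5 of the 7 the highest MCAO rat lay below the lowest sham rat. The mean level of the B cell list was 6.33996 to 6.34173 in MCAO and 6.34181 to 6.3433 in sham, without overlap. In every list such a mean is moved mostly by the genes that vary most, here Ms4a1 and Fcmr. Of 11 natural killer markers, all measured, 10 had a lower mean. Of these Prf1, which is also an ETS target, was called, and Klrb1a differed by -0.00129 (SE 0.00115). The list's mean level was 5.94328 to 5.94511 in MCAO and 5.94427 to 5.94543 in sham. After centring, a lower mean was left in 5 of the 13 T cell, 4 of the 7 B cell and 9 of the 11 natural killer markers, and in 11.1% of all genes. The part of these markers in the differences of Ets1 and Fli1 was not tested.

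Markers of other blood cells did not share one direction. Of 10 monocyte markers 8 were measured, none was called by Rank Products or limma and 0 had an unadjusted limma p under 0.05, with Csf1r at -0.00132 (SE 0.00159) and Lyz2 at 0.000289 (SE 0.0216). The list's mean level was 6.45962 to 6.46916 in MCAO and 6.46258 to 6.4671 in sham. Of 11 neutrophil markers 8 were measured and 6 had a higher mean, with a mean level of 6.39565 to 6.42521 in MCAO and 6.40496 to 6.40934 in sham. Csf3r was called higher. S100a9, an alarmin of neutrophils, was called lower although its mean was higher in MCAO by 0.00271 (SE 0.0278). Lower takes precedence where both directions pass, and whether S100a9 also passed as higher is not given here. Its values were 9.025, 9.062 and 9.124 in MCAO and 9.066, 9.078 and 9.058 in sham, so that MCAO rats held both the lowest and the highest. Of 11 platelet markers 8 were measured, 7 had a higher mean and none was called by Rank Products or limma. An unadjusted limma p under 0.05 was found at 0 of them. The mean level of the platelet list was 8.59743 to 8.59825 in MCAO and 8.59735 to 8.59785 in sham. For comparison, 49.8% of all genes had a higher mean, 0.886% were called lower and 0.134% higher. After centring a higher mean was found at 7 neutrophil and 7 platelet markers, and a lower one in 11.1% of all genes. Of 11 reticulocyte markers 8 were measured and all 8 had a lower mean, against 6 after centring. After quantile normalization 2 had a lower mean and 1 a higher one, and the rest did not differ. Tfrc, the transferrin receptor, was called lower at -0.00661 (SE 0.00485), and Rhag differed by -0.00114 (SE 0.000696). The list's mean level was 9.79892 to 9.79969 in MCAO and 9.79926 to 9.80188 in sham.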

How the data were processed

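RNA of whole blood, isolated with TRIzol LS and an RNeasy kit, was hybridised by the authors as biotin-labelled cRNA to 6 arrays, 1 per rat. The deposited log2 values are 1 per probe set and array, normalized and summarised together with DFW in R. No log base is stated, and log2 was taken from their range of 4.93 to 14.4. No background estimate comes with them, so signal over background cannot be given, and precision is limited by how many arrays there are. Levels of different probe sets were not set against each other.

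The 57 control probe sets were left out. Of the 31042 tested, 20826 carry 1 gene symbol, 436 several and 9780 none. Of 20832 probe sets with 1 symbol, controls included, 20757 matched a GRCr8 gene by ID.

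Rank Products, the method that the study's methods name, was written in Python 3.11.15 (numpy 2.4.6, pandas 2.3.3, scipy 1.17.1). The 9 differences and 100 permutations of probe sets within arrays were settings chosen here. The code was tested on simulated arrays in which every probe set had the same SD. Ranges of the deposited values differ widely between probe sets, so that test cannot tell how reliable the calls are under unequal spread. Differences and SE came from limma 3.58.1 in R 4.3.3, which called no probe set at an adjusted p under 0.05. After quantile normalization it called 62, none of them a member or a gene of the lists at its highest-mean probe set, and without sham rat 1 it called 1. Correlations were tested by exact permutation. Whether rats of a group differ only by animal or also by handling is not given in the sources used here.

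Members and lists were chosen with earlier results of these data known. The named genes are all member probe sets, in each other list the called genes and the 2 with the largest difference, and the 5 most correlated with Fli1 and with Ets1. Alternatives were quantile normalization, centring on the array median, probe sets above the median level, kept controls, limma, a stricter FDR of 0.01, a replicate block and leaving out each rat. Raw images and miRNA arrays were not used here.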

Additional observations from a re-analysis of the deposited data

How the results depend on the processing

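In this section, as reported means the main setting of the Results above and not the study's own counts. Members called lower, 2 as reported, came to 1 at an FDR of 0.01 and to 0 with limma. With 1 rat left out they came to between 0 and 2. Member probe sets with a lower mean, 10 as reported, came to between 8 and 11 with 1 rat left out. With arrays centred on the median they came to 5, where 7.53% of all probe sets had a lower mean. The direction held under the 8 scalings and rats left out at 4 of the 15 member probe sets (Ets1, Fli1 at 6.24 and both of Elf1). It turned or vanished under at least 1 at the other 11. Centring, which shifted all differences upward alike, turned 5. Partner factors called lower, 0 as reported, came to 1 after quantile normalization and to 0 or 1 with 1 rat left out. ETS targets called lower, 4 as reported, came to 2 after quantile normalization, 1 among probe sets above the median level, 0 with limma, 0 at an FDR of 0.01 and to between 0 and 8 with 1 rat left out. ETS targets called higher, 1 as reported, came to 0 after quantile normalization, 0 among those above the median level, 0 with limma, 0 at an FDR of 0.01 and to between 0 and 2 with 1 rat left out. The within-group correlation of Fli1 at 6.24 and Ets1 was 0.895 after quantile normalization and between 0.949 and 0.994 with 1 rat left out. With MCAO rat 1 and sham rat 1 both left out it was 0.602. The cause of these changes was not tested. Over all probe sets, 89 were called lower and 24 higher after quantile normalization, 83 and 30 among those above the median level, and 56 and 27 at an FDR of 0.01, against 180 and 39 as reported. Without MCAO rats 1, 2 and 3 the counts were 255 and 14, 166 and 17, and 346 and 20, and without sham rats 1, 2 and 3 they were 42 and 47, 21 and 48, and 13 and 62.

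With the replicate number as a block, the members called lower were 3, with Elf1 at 5.94 added, the targets called lower 6 and the targets called higher 2, and over all probe sets 288 were called lower and 64 higher. The numbers do not pair the rats by their labels, and deviations of same-numbered rats correlated at -0.419, -0.851 and -0.899 (0.211, 0.04 and 0.0661 after scaling to equal SD). Depth cannot be read from these values, and small differences are limited by the contraction of the scale.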
